A study of Setaria viridis with 22 samples.

Results

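The MYB, basic helix-loop-helix (bHLH), basic leucine zipper (bZIP), and WRKY genes described here are 75 of the 2952 genes that the authors listed as different between *spp1* and A10.1 inflorescences of *Setaria viridis* at 10, 12, or 14 d after sowing (DAS). A gene was taken when the description of its rice homolog named one of these families, a heat stress transcription factor, or a CCAAT-binding or histone-like transcription factor. MYB descriptions gave 30 members, bHLH 20, WRKY 14, and bZIP 10. A single gene had a histone-like description, and heat stress factors gave 0. Expression values, in FPKM (fragments normalized to transcript length and to the mapped fragments of the library), were found for all 75 members among the 35214 primary transcripts measured. Of the members, 4 were on the list of 10 DAS, 17 on that of 12 DAS, and 65 on that of 14 DAS, where all genes listed numbered 166, 810, and 2573. Membership at 14 DAS alone held for 57 members, membership at 12 DAS alone for 8, and 10 members were listed at more than 1 stage. The listing was made with the difference between genotypes in these same libraries, so that difference is given below as a description and is not tested at the stage of listing.

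These families are among the largest groups of plant transcription factors, and each is named for the domain that contacts DNA. MYB proteins carry helix-turn-helix repeats. bHLH and bZIP proteins bind DNA as pairs, through a basic region next to a helix-loop-helix or a leucine zipper, and WRKY proteins carry a zinc finger with the amino acids that give the family its name. In Arabidopsis, members of these families act in axillary meristem formation, leaf polarity, cuticle and flavonoid synthesis, chloroplast development, and responses to abscisic acid, jasmonate, and pathogens. The rice description does not guarantee such a role. Other descriptions call Sevir.9G238700 a telomere repeat-binding protein, Sevir.7G330800 a REB1-like protein, and Sevir.1G194100 a piccolo-like protein, all 3 with a MYB description in rice and a Myb domain. Sevir.3G281900, counted as WRKY, is otherwise described by an NB-ARC domain and the Arabidopsis receptor-like kinase SERK1, with no WRKY domain. Sevir.9G443700, counted as bHLH, is otherwise described as aprataxin, with no bHLH domain. Both stay in the family counts below. Names and roles below come from the nearest named gene in the deposited annotation, and roles known from Arabidopsis were not examined in Setaria.

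The mutant plants were *spp1*, which carry their mutation in an auxin importer in the A10.1 background, and the controls were A10.1, the wild-type accession. Whole inflorescences were dissected by hand and pooled, so a library is a pool of plants, and fewer cells of a type and less RNA per cell cannot be told apart. Libraries per genotype numbered 4, 3, and 4 at 10, 12, and 14 DAS in turn. Mapped first reads ranged from 10.43 M to 24.26 M per library, with 86.69% to 93.22% of the reads mapped. The second sequencing indexes were 3 in *spp1* and 3 in A10.1, with 0 in common, so the index set and the genotype cannot be told apart. Replicate 4 of *spp1* at 14 DAS had the lowest depth and mapped share and stood apart from the other 21 libraries on the second principal component (58.23, against -26.39 to 22.43 in the others). It was the highest of the 4 *spp1* libraries for 24 members and the lowest for 26. All 8 inflorescence genes looked for, such as the Setaria homologs of maize *ramosa2* and *liguleless1*, were present in every library, at 0.86 FPKM or more. These 8 genes and 16 genes of the photosystems and chlorophyll-binding proteins came from the same stage lists, so their differences between genotypes were part of their choice. At 14 DAS the summed FPKM of the photosynthesis genes was 2473 to 4230 in *spp1* and 1933 to 2496 in A10.1, with 16 of 16 higher on average in *spp1*. The summed inflorescence genes stood at 327 to 433 in *spp1* and at 572 to 732 in A10.1. At 10 DAS the sums of the photosynthesis genes were higher than at 14 DAS, at 4283 to 7280 in *spp1* and 5662 to 6619 in A10.1. The part of such tissue differences in the results below was not tested.

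Differences between the genotypes were mostly small. At 14 DAS, 38 of the 65 members listed there had the higher mean in *spp1* and 27 had the higher mean in A10.1, on log2(FPKM + 1). Differences, given as *spp1* minus A10.1, ran from -1.68 to 1.10 and exceeded 1 in size in 5 members. Libraries of the 2 genotypes did not overlap in 41 of the 65 members, with *spp1* above A10.1 in 19 and below it in 22. Over all 17645 genes tested at that stage, *spp1* lay above A10.1 without overlap in 4.09% and below it in 10.2%, and nothing is read from the members' count, since this contrast chose them. By family, 12 of 17 bHLH, 16 of 27 MYB, and 8 of 13 WRKY members listed at 14 DAS were higher in *spp1*, whereas 6 of 8 bZIP members were lower. The median over the 73 members with enough signal at 14 DAS was 0.26, beside -0.39 over 2694 other listed genes and -0.10 over all 17645 genes tested. Without replicate 4 of *spp1*, 1 of the 65 differences changed sign and 9 changed in size by more than 1.5 times. Among the 17 members listed at 12 DAS, 8 were higher in *spp1* and 9 were lower, and the differences ran from -2.44 to 0.74. The 4 members listed at 10 DAS were split evenly, from -1.44 to 1.26.

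**Figure D1:**
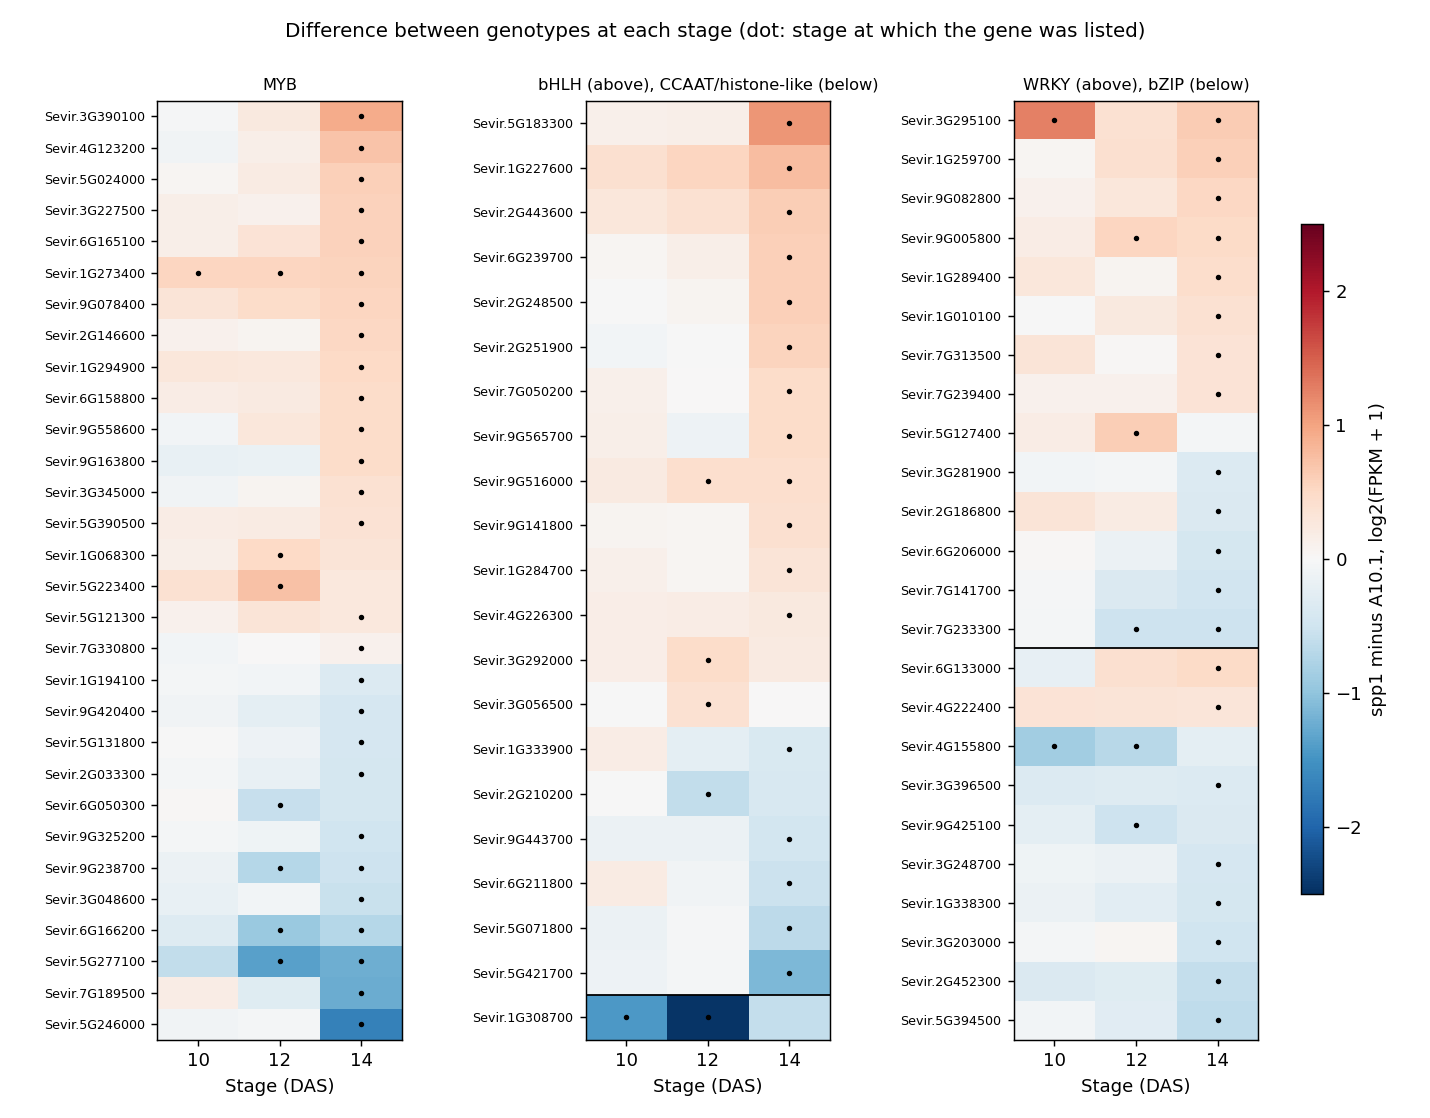
Difference between *spp1* and A10.1 for each of the 75 members (rows) at 10, 12, and 14 DAS (columns), as *spp1* minus A10.1 on log2(FPKM + 1), with red where *spp1* was higher and blue where it was lower. Dots mark the stages at which the gene was listed, and most of the 65 dots at 14 DAS sit on differences smaller than 1 in size, while the histone-like gene Sevir.1G308700 has the strongest blue, at 12 DAS.

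The course over the stages was then compared within each genotype, with limma fitted to the 11 libraries of that genotype over every gene that averaged 1 FPKM or more in those libraries. A change is the later minus the earlier stage on log2(FPKM + 1), given with its SE and called at a Benjamini-Hochberg adjusted p of 0.05. The members were not chosen by stage, but the same libraries entered the lists, so a library that raised a difference between genotypes could also raise a step. From 10 to 14 DAS in *spp1*, 33 of 73 members were called, where 18.2% of all 17902 genes were called. Of these, 14 members rose and 19 fell, beside 8.11% of all genes that rose and 1808 genes that fell. Without replicate 4 of *spp1* at 14 DAS the shares of all genes became 18.1% rising and 11.9% falling, with 17 and 20 members. In A10.1 over the same time, 24 of 74 members rose and 23 fell, where 31.4% of all 17871 genes rose and 16.9% fell. Of 2715 other listed genes there, 47% rose and 29.7% fell. The share of A10.1 genes that rose depended on the scale. The median change of all genes was 0.13 in FPKM as deposited, and with each library divided by its median ratio 21.3% of all genes rose and 22.2% fell, with 23 and 26 members. Calls overlapped between the genotypes. Of the members that rose, 11 of the 14 in *spp1* also rose in A10.1, out of 24 there. Falls were shared by 17 members, of 19 in *spp1* and 23 in A10.1. In FPKM as deposited, no member rose in a genotype and fell in the other, and 23 of the 75 were called in neither. With median ratio scaling, Sevir.3G390100, called as rising in *spp1*, was called as falling in A10.1 (-0.50, adjusted p = 0.044). A call in a single genotype is no test of a difference between the genotypes.

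Shorter steps gave fewer calls. From 10 to 12 DAS, 5 members rose and 5 fell in *spp1*, beside 1.12% and 1.42% of all genes. In A10.1, 15 rose and 14 fell over this step, beside 6.84% and 6.37% of all genes. From 12 to 14 DAS, 2 members rose and 3 fell in *spp1*, beside 0.676% and 0.877% of all genes. In A10.1, 6 rose and 12 fell over that step, beside 2.44% and 2.74% of all genes. With median ratio scaling the split between rising and falling genes moved. The percentages became 0.916% and 1.98% for the step from 10 to 12 DAS in *spp1*, 5.25% and 7.93% for that step in A10.1, and 2.09% and 3.47% from 12 to 14 DAS in A10.1. The counts in *spp1* rested on few libraries. Members that rose from 10 to 12 DAS in *spp1* numbered 0 without replicate 1 of 12 DAS, 2 without replicate 1 or replicate 2 of 10 DAS, and 3 without replicate 3 of 10 DAS or replicate 2 or 4 of 12 DAS. The share of all genes that rose was 0.257% without replicate 1 of 12 DAS and 0.531% to 0.642% in the other fits named. Members that fell numbered 3 without replicate 2 of 10 DAS (0.621% of all genes) or replicate 1 of 12 DAS (0.274%). From 12 to 14 DAS in *spp1*, 1 member rose and 1 fell without replicate 2 or 4 of 12 DAS or without replicate 3 of 14 DAS, where 0.196% to 0.318% of all genes rose and 0.168% to 0.402% fell. Without replicate 1 or 2 of 14 DAS 1 member fell, beside 0.721% and 0.636% of all genes. In A10.1, 9 members fell from 10 to 12 DAS without replicate 1 of 12 DAS (3.78% of all genes). From 12 to 14 DAS, 7 fell without replicate 2 or 4 of 12 DAS (1.47% and 1.62% of all genes). The list of 14 DAS used no library of the step from 10 to 12 DAS. Among members on that list alone, 1 of 55 rose and 4 fell in *spp1*, and 7 of 56 rose and 10 fell in A10.1 in that step. Among 2659 listed genes that are not members 107 rose and 61 fell in *spp1*, and among 2715 such genes 409 rose and 389 fell in A10.1. These genes come from all the stage lists, also those of 10 and 12 DAS, which used libraries of this step. The 2 sets are therefore not alike, and nothing is read from their difference.

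**Figure D2:**
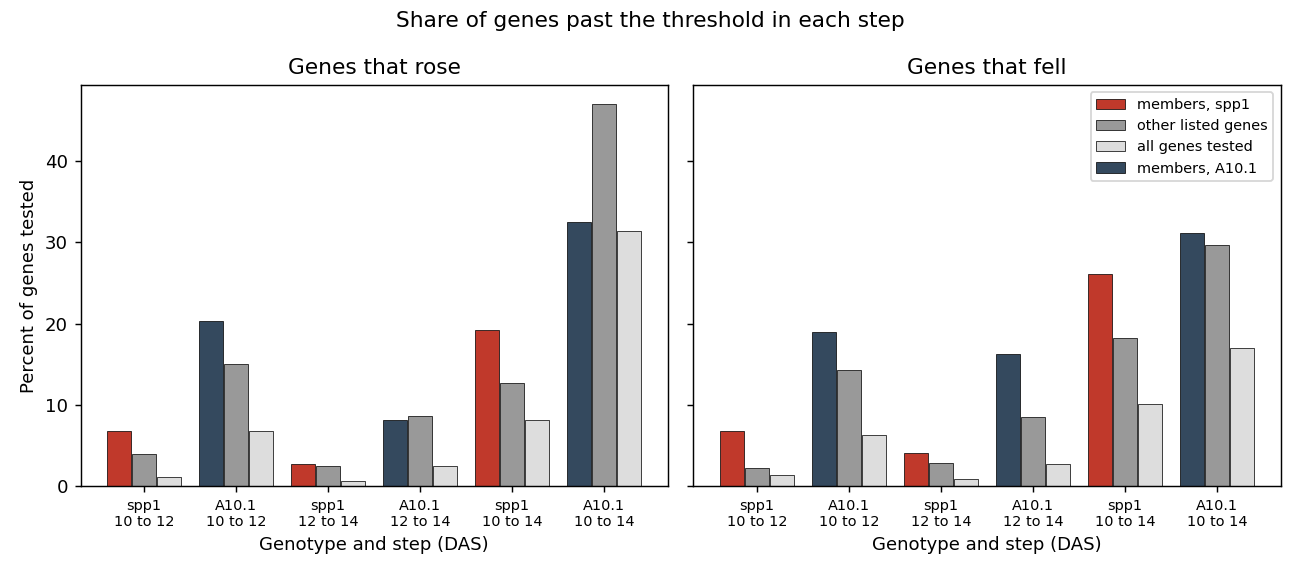
Percent of genes tested that rose (left) or fell (right) in each step of *spp1* and A10.1, for the members (red in *spp1*, dark blue in A10.1), for the other listed genes, and for all genes tested. With all libraries kept, the bars of members and other listed genes stand above that of all genes tested in every step shown. Some rest on few calls, and without replicate 1 of 12 DAS 0 members rose from 10 to 12 DAS in *spp1*, beside 0.257% of all genes. For the rises from 10 to 14 DAS in A10.1 the share of members is close to that of all genes. There 32.4% of members, 47% of other listed genes, and 31.4% of all genes rose.

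Members were then counted by family, beside the calls of all genes. In *spp1*, 18.2% of all genes were called, with 8.11% rising and 1808 of 17902 genes falling. In A10.1, 31.4% of all genes rose and 16.9% fell. From 10 to 14 DAS, 9 of the 20 bHLH members fell and 2 rose in *spp1*, and 10 fell and 2 rose in A10.1. The median bHLH change was -0.56 in *spp1* and -0.66 in A10.1. bZIP members leaned the other way, with 4 of 9 rising and 1 falling in *spp1*, and 5 of 10 rising and 1 falling in A10.1. WRKY members were divided, with 3 of 14 rising and 3 falling in *spp1*, and 4 of 13 rising and 3 falling in A10.1. MYB members numbered 4 rising and 6 falling of 29 in *spp1*, and 12 rising and 9 falling of 30 in A10.1. The share of rising WRKY members in A10.1, 30.8%, was close to that of all genes. With median ratio scaling the balance of the MYB members in A10.1 turned, to 11 rising and 12 falling, while the bHLH members stayed at 2 and 10 and the bZIP members at 5 and 1. No test compared the families with each other.

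**Figure D3:**
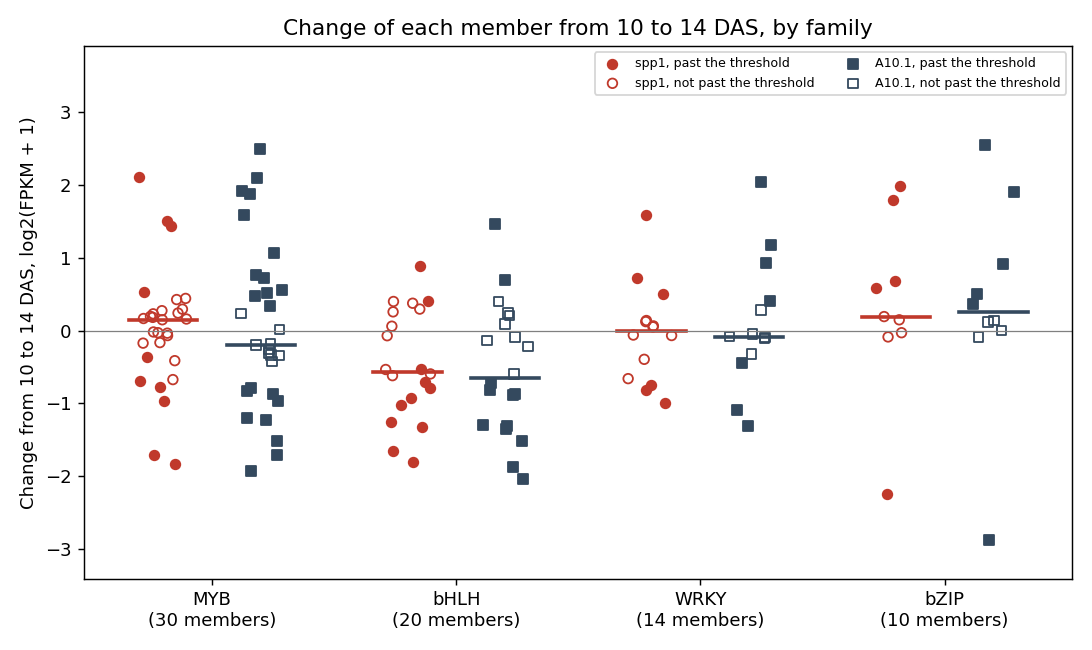
Change of each member from 10 to 14 DAS on log2(FPKM + 1), by family, in *spp1* (circles, left) and A10.1 (squares, right), with filled symbols for members past an adjusted p of 0.05 and lines at the median of the family. The bHLH medians lie below 0 in both genotypes (-0.56 in *spp1* and -0.66 in A10.1), and the bZIP medians lie above 0.

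The MYB members lower in *spp1* included genes that rose strongly in A10.1. Sevir.5G277100 is a RAX2-like gene, whose Arabidopsis relatives, the REGULATOR OF AXILLARY MERISTEMS genes, act where new meristems form. At 12 DAS it had 7.09, 5.99 and 4.42 FPKM in the *spp1* libraries, against 18.0, 16.7 and 14.2 FPKM in the A10.1 libraries. At 14 DAS it had 3.88, 6.82, 4.75 and 10.7 FPKM in *spp1*, against 17.4, 13.8, 19.97 and 12.2 FPKM in A10.1. The genotypes did not overlap at either stage, nor at 10 DAS, where the gene was not listed and had 4.84, 3.83, 3.71 and 4.7 FPKM in *spp1* and 7.81, 6.98, 6.0 and 7.25 FPKM in A10.1. Within A10.1 the gene rose from 10 to 12 DAS by a log2 change of 1.11 ± 0.152 (log2, SE, n = 4 and 3, adjusted p = 0.000586). In *spp1* the same step was 0.36 ± 0.255 (adjusted p = 0.41). Whether the step differed between the genotypes is not read here, since the difference at 12 DAS helped choose the gene.

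The largest difference of the family at 14 DAS was that of Sevir.5G246000, a RADIALIS-like gene of the single-repeat MYB type. RADIALIS of snapdragon sets up floral asymmetry. This member had 2.5, 2.0, 0.88 and 0.38 FPKM in *spp1* at 14 DAS, against 6.06, 8.06, 4.58 and 7.11 FPKM in A10.1. All A10.1 libraries of that stage lay above all *spp1* libraries, and the difference was -1.68, or -1.44 without replicate 4 of *spp1*. At 12 DAS it was low, with 0, 0.45 and 0.60 FPKM in *spp1* and 0.91, 0 and 0.37 FPKM in A10.1. The rise from 12 to 14 DAS in A10.1 was 2.41 ± 0.257 (adjusted p = 0.000303). In *spp1* the gene had a mean under 1 FPKM over the libraries and was not tested.

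Sevir.7G189500, described as Myb4-like and nearest to MYB17 of Arabidopsis, also rose in A10.1. Its libraries of 14 DAS had 5.99, 9.67, 6.55 and 17.2 FPKM in *spp1*, against 21.4, 25.8, 25.8 and 18.7 FPKM in A10.1. The *spp1* library closest to A10.1 was replicate 4, and without it the difference was -1.52, against -1.24 with it. From 10 to 14 DAS the gene rose in A10.1 by a log2 change of 1.58 ± 0.179 (adjusted p = 2.86e-05), and the change in *spp1* was 0.16 ± 0.317 (adjusted p = 0.768). Whether these changes differed between the genotypes was not tested, since the difference at 14 DAS chose the gene.

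Sevir.6G166200, a MYB306-like gene nearest to MYB94, an activator of cuticular wax synthesis in Arabidopsis, rose with stage in both genotypes. In *spp1* it had 1.25, 1.58, 1.31 and 2.4 FPKM at 10 DAS, 4.48, 3.39 and 3.13 FPKM at 12 DAS, and 9.17, 9.13, 10.9 and 11.7 FPKM at 14 DAS. In A10.1 it had 1.94, 1.95, 2.76 and 2.51 FPKM at 10 DAS, 9.34, 8.01 and 6.22 FPKM at 12 DAS, and 17.4, 19.1, 16.8 and 16.2 FPKM at 14 DAS. No library of a later stage overlapped an earlier stage of its genotype. The rise from 10 to 14 DAS was 2.10 ± 0.152 in *spp1* (adjusted p = 6.33e-06) and 2.49 ± 0.124 in A10.1 (adjusted p = 4.98e-08). The level in *spp1* lay below that in A10.1 without overlap at 12 and 14 DAS. The call for the shorter step from 10 to 12 DAS in *spp1* (adjusted p = 0.022) was lost with median ratio scaling, at an adjusted p of 0.052. It was also lost without replicate 1, 2, or 3 of 10 DAS or replicate 1 or 2 of 12 DAS, at adjusted p-values of 0.060 to 0.133. Sevir.9G238700, the member with a telomere repeat-binding description, rose in the same way from a lower level, to 2.41 ± 0.530 FPKM in *spp1* and 3.86 ± 0.722 FPKM in A10.1 at 14 DAS (mean ± SD, n = 4 each). Its change from 10 to 14 DAS was 1.5 in *spp1* and 1.87 in A10.1, with adjusted p-values of 4.18e-05 and 4.86e-06.

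**Figure D4:**
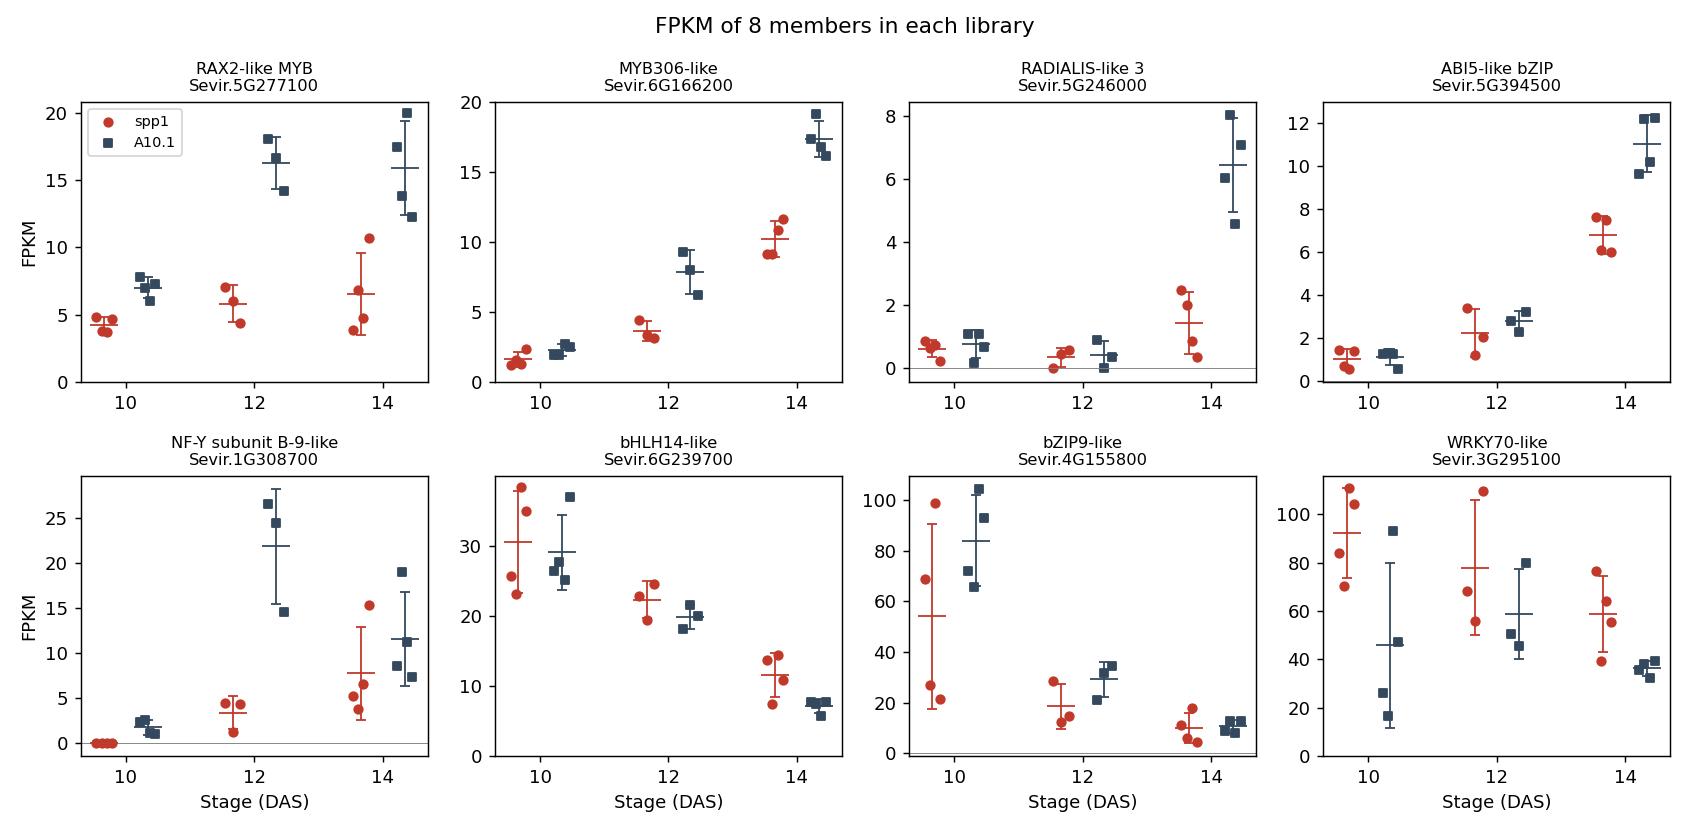
FPKM of 8 members in each library at 10, 12, and 14 DAS, for *spp1* (red circles, left of each pair) and A10.1 (dark squares, right), with horizontal bars at the mean and error bars of 1 SD. RAX2-like Sevir.5G277100 is lower in *spp1* without overlap at all 3 stages, whereas WRKY70-like Sevir.3G295100 overlaps at all 3.

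Other MYB members were higher in *spp1*. Sevir.1G273400, which has no name beyond its family, was the only member listed at all 3 stages, and its level was nearly flat over time. It had 13.2, 14.7, 7.4 and 14.7 FPKM in *spp1* and 9.44, 8.35, 8.25 and 6.28 FPKM in A10.1 at 10 DAS. At 12 DAS it had 15.5, 14.5 and 14.6 FPKM in *spp1* and 12.2, 7.22 and 10.98 FPKM in A10.1, and at 14 DAS 11.8, 13.9, 14.1 and 18.8 FPKM in *spp1* and 9.68, 8.31, 11.8 and 8.87 FPKM in A10.1. Replicate 3 of *spp1* at 10 DAS was the only *spp1* library within the range of A10.1, and the difference was 0.54, 0.54, and 0.55 at the 3 stages in order. No step of this gene was past the threshold in either genotype.

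Sevir.9G078400 carries a GLK1-like description, after the GOLDEN2-LIKE factors that promote chloroplast development, though its Arabidopsis description names only the MYB family. At 10 DAS it had 64.7, 51.7, 24.2 and 34.6 FPKM in *spp1* and 53.2, 28.1, 29.8 and 25.6 FPKM in A10.1, and at 14 DAS 10.6, 12.8, 11.6 and 12.4 FPKM in *spp1* and 7.37, 5.66, 8.92 and 10.2 FPKM in A10.1. The 14 DAS libraries all lay below the 10 DAS libraries of the same genotype. The change over this time was -1.71 ± 0.234 in *spp1* (adjusted p = 0.000435) and -1.93 ± 0.210 in A10.1 (adjusted p = 2.13e-05). It moved with the photosynthesis genes, whose sums fell over the same stages and were higher in *spp1* at 14 DAS. Their part in its course was not tested. The member whose nearest Arabidopsis gene is GLK1 itself, Sevir.4G123200, was picked here after its values were seen. It had 4.41 ± 0.934 FPKM in *spp1* and 2.29 ± 0.487 FPKM in A10.1 at 14 DAS. It fell in A10.1 by a log2 change of -0.83 ± 0.143 from 10 to 14 DAS (adjusted p = 0.000659), and its change in *spp1* was -0.03 ± 0.159 (adjusted p = 0.917).

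Falls of some other MYB members came at different steps. Sevir.5G223400, MYB1R1-like and listed at 12 DAS, had 9.78, 12.2, 9.55 and 10.98 FPKM in *spp1* and 10.8, 6.95, 9.11 and 5.6 FPKM in A10.1 at 10 DAS. By 12 DAS it was at 2.74, 3.73 and 4.33 FPKM in *spp1* and 1.66, 1.4 and 2.17 FPKM in A10.1, below every 10 DAS library of its genotype. Its change over that step was -1.35 ± 0.191 in *spp1* (adjusted p = 0.00478) and -1.71 ± 0.213 in A10.1 (adjusted p = 0.000299). Sevir.9G558600 fell later, by a log2 change of -0.79 ± 0.0948 from 12 to 14 DAS in *spp1* (adjusted p = 0.00318) and of -0.98 ± 0.163 in A10.1 (adjusted p = 0.00437). The MYB member with the highest level was Sevir.3G345000, which is MYBAS2-like and had 54.4 FPKM as a mean over the 22 libraries. At 14 DAS it had 55.4, 34.3, 57.4 and 41.8 FPKM in *spp1*, against 39.4, 28.5, 37.5 and 37.6 FPKM in A10.1, so the genotypes overlapped.

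Members nearest to the KANADI genes of Arabidopsis, which specify the lower side of leaves and floral organs, were picked after their values were seen. They did not share a course. KAN2-like Sevir.6G050300 was at 40.9 ± 10.8 FPKM in *spp1* and 55.0 ± 5.58 FPKM in A10.1 at 14 DAS (mean ± SD, n = 4 each). It rose from 10 to 14 DAS by a log2 change of 1.43 ± 0.199 in *spp1* (adjusted p = 0.000482) and of 1.91 ± 0.176 in A10.1 (adjusted p = 5.67e-06). KAN1-like Sevir.6G158800 fell in A10.1 by a log2 change of -0.96 ± 0.160 (adjusted p = 0.000516), with a change of -0.67 ± 0.218 in *spp1* (adjusted p = 0.0527), or of -0.82 without replicate 4 of *spp1* at 14 DAS (adjusted p = 0.017). KAN4-like Sevir.3G390100 rose in *spp1* by a log2 change of 0.52 ± 0.121 (adjusted p = 0.0112), and its change in A10.1 was -0.42 ± 0.189 (adjusted p = 0.0822), which passed the threshold with median ratio scaling (adjusted p = 0.044) and without replicate 1 of A10.1 at 14 DAS (adjusted p = 0.034). At 14 DAS that gene had 3.14, 2.98, 2.8 and 3.78 FPKM in *spp1* and 1.93, 1.04, 1.18 and 0.79 FPKM in A10.1, with no overlap. Another KAN4-like member, Sevir.9G163800, had 4.08, 2.82, 3.02 and 2.93 FPKM in *spp1* and 2.01, 1.51, 2.13 and 2.65 FPKM in A10.1 at 14 DAS, likewise without overlap. With the 11 libraries of each genotype, none of its steps passed the threshold. Its change from 10 to 14 DAS in A10.1 was -0.53 without replicate 1 of 10 DAS (adjusted p = 0.038).

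The histone-like member, Sevir.1G308700, had the largest difference of all members. It is described as a subunit B-9-like gene of nuclear factor Y, the complex that binds CCAAT boxes, and its nearest Arabidopsis gene is LEC1-LIKE, which acts in the embryo. At 10 DAS it was listed at 0 in all 4 *spp1* libraries, against 2.41, 2.59, 1.18 and 1.03 FPKM in A10.1. At 12 DAS it had 4.48, 1.28 and 4.42 FPKM in *spp1*, against 26.5, 24.4 and 14.6 FPKM in A10.1, a difference of -2.44. At 14 DAS, where it was not listed, it had 5.29, 3.87, 6.54 and 15.3 FPKM in *spp1* and 8.62, 19.0, 11.2 and 7.32 FPKM in A10.1, and the genotypes overlapped. The highest *spp1* value there was that of replicate 4. All A10.1 libraries of 12 DAS lay above those of 10 DAS, with a rise of 3.03 ± 0.306 (adjusted p = 6.8e-05). In *spp1* the gene rose from 10 to 14 DAS (adjusted p = 0.000177), with a size that depends on the pseudocount because of the values listed at 0.

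Falls prevailed among the bHLH members. Sevir.6G239700 is described as bHLH14-like and is nearest to MYC2, the central factor of jasmonate responses in Arabidopsis. It had 25.8, 23.1, 38.4 and 35.02 FPKM in *spp1* and 26.4, 27.8, 25.1 and 36.99 FPKM in A10.1 at 10 DAS. Its libraries of 14 DAS had 13.7, 7.5, 14.5 and 10.9 FPKM in *spp1* and 7.75, 7.39, 5.76 and 7.79 FPKM in A10.1, below every 10 DAS library of its genotype. The change was -1.33 ± 0.202 in *spp1* (adjusted p = 0.000882) and -1.87 ± 0.127 in A10.1 (adjusted p = 5.23e-07). Replicate 2 of *spp1* lay within the A10.1 range at 14 DAS and the other *spp1* libraries lay above it.

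Sevir.1G227600, bHLH128-like, fell from 10 to 14 DAS by a log2 change of -1.65 ± 0.227 in *spp1* (adjusted p = 0.000449) and of -2.03 ± 0.261 in A10.1 (adjusted p = 7.6e-05). It had 3.38, 1.93, 3.54 and 6.09 FPKM in *spp1* and 1.65, 0.84, 3.0 and 1.47 FPKM in A10.1 at 14 DAS, with overlap. Its relative Sevir.5G421700, also bHLH128-like, showed the opposite difference, with 1.67, 1.05, 0.88 and 0.46 FPKM in *spp1* and 3.31, 5.36, 1.81 and 3.45 FPKM in A10.1 and no overlap. Its change from 10 to 14 DAS was -0.59 ± 0.209 in *spp1* (adjusted p = 0.0706), or -0.74 without replicate 1 of 14 DAS (adjusted p = 0.033). In A10.1 it was 0.40 ± 0.203 (adjusted p = 0.124), or 0.60 without replicate 3 of 14 DAS (adjusted p = 0.011). The largest positive difference of the family was that of Sevir.5G183300, nearest to ZHOUPI, an Arabidopsis gene of endosperm and embryo surface development. That gene was low and variable, with 4.86, 1.45, 3.74 and 2.84 FPKM in *spp1* and 0.23, 1.77, 0.57 and 1.33 FPKM in A10.1 at 14 DAS, and the genotypes overlapped.

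Early and late falls were both seen. Sevir.5G071800 had 39.6, 35.4, 68.4 and 43.8 FPKM in *spp1* and 52.4, 45.3, 47.8 and 54.9 FPKM in A10.1 at 10 DAS, and fell already by 12 DAS, to 17.9, 17.1 and 14.5 FPKM in *spp1* and 17.2, 19.1 and 14.2 FPKM in A10.1. That step was -1.41 ± 0.212 in *spp1* (adjusted p = 0.00643) and -1.53 ± 0.183 in A10.1 (adjusted p = 0.000235). Sevir.3G292000, bHLH61-like, fell between 10 and 14 DAS by a log2 change of -1.26 ± 0.252 in *spp1* (adjusted p = 0.00472) and of -1.30 ± 0.277 in A10.1 (adjusted p = 0.00259). Its levels at 12 DAS, 31.1, 58.7 and 44.3 FPKM in *spp1* and 39.03, 25.1 and 30.5 FPKM in A10.1, all lay within the range of the 10 DAS libraries of their genotype. Sevir.2G248500 fell over the whole course as well, by a log2 change of -0.93 in *spp1* and -1.52 in A10.1, with adjusted p-values of 0.0109 and 9.82e-06.

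The 3 bHLH members with a bHLH96-like description differed in course. Sevir.1G284700, the bHLH member with the highest level (73.8 FPKM over the 22 libraries), had no step past the threshold in either genotype. At 14 DAS it had 72.3, 77.7, 80.4 and 83.8 FPKM in *spp1* and 55.6, 58.1, 70.7 and 65.7 FPKM in A10.1. Sevir.9G516000, listed at 12 and 14 DAS, had 28.2, 41.8, 27.1 and 18.9 FPKM in *spp1* and 22.4, 19.4, 21.4 and 19.1 FPKM in A10.1 at 14 DAS, with overlap through replicate 4 of *spp1*. It fell from 10 to 14 DAS in A10.1 by a log2 change of -0.81 ± 0.229 (adjusted p = 0.0122), and its change in *spp1* was -0.62 ± 0.251 (adjusted p = 0.112). That change in *spp1* passed without replicate 3 of 10 DAS (adjusted p = 0.022) or replicate 2 of 14 DAS (adjusted p = 0.046). Sevir.1G333900, picked after its values were seen, rose by a log2 change of 0.88 ± 0.113 in *spp1* (adjusted p = 0.000276) and of 1.46 ± 0.119 in A10.1 (adjusted p = 2.3e-06).

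Among the bZIP members, 5 are nearest to abscisic acid factors of Arabidopsis (ABI5, AREB3, EEL, or ABF4), a group formed after its values were seen. All 5 lay lower in *spp1* at 14 DAS, without overlap. Except for a member listed at 12 DAS, they were listed by the contrast at 14 DAS itself. Of all genes tested at 14 DAS, 10.2% lay lower in *spp1* without overlap, as did 22 of the 65 members listed there. Nothing is read from the shared side of the group, since that contrast and the values seen chose it. Sevir.5G394500 is nearest to ABI5, which acts in abscisic acid signaling in seeds. In *spp1* it had 1.42, 0.69, 0.52 and 1.39 FPKM at 10 DAS, 3.41, 1.21 and 2.03 FPKM at 12 DAS, and 7.63, 6.08, 7.51 and 5.98 FPKM at 14 DAS. In A10.1 it had 1.26, 1.31, 1.26 and 0.55 FPKM at 10 DAS, 2.8, 2.29 and 3.22 FPKM at 12 DAS, and 9.63, 12.2, 10.2 and 12.2 FPKM at 14 DAS. The genotypes overlapped at 10 and 12 DAS and were apart at 14 DAS. The rise over the whole time was 1.98 ± 0.218 in *spp1* (adjusted p = 9.92e-05) and 2.54 ± 0.146 in A10.1 (adjusted p = 1.61e-07).

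Sevir.9G425100, described as ABI5-like protein 2-like, was the bZIP member with the highest level and was listed at 12 DAS. It had 57.7, 38.6 and 46.4 FPKM in *spp1* and 75.3, 57.1 and 71.2 FPKM in A10.1 at 12 DAS, where overlap came from *spp1* replicate 1 with A10.1 replicate 2. It rose from 10 to 14 DAS by a log2 change of 1.78 ± 0.167 in *spp1* (adjusted p = 3.23e-05) and of 1.89 ± 0.113 in A10.1 (adjusted p = 2.17e-07). Sevir.2G452300, nearest to the EEL gene of the same group, rose by a log2 change of 0.67 ± 0.134 in *spp1* (adjusted p = 0.00451) and of 0.91 ± 0.115 in A10.1 (adjusted p = 6.52e-05). Its libraries of 14 DAS had 10.9, 10.3, 14.1 and 8.5 FPKM in *spp1* and 15.7, 19.7, 16.6 and 15.4 FPKM in A10.1, without overlap. Sevir.3G203000, nearest to AREB3, rose in A10.1 by a log2 change of 0.36 ± 0.0948 (adjusted p = 0.00835), and its change in *spp1* was -0.09 ± 0.178 (adjusted p = 0.77). Its difference at 14 DAS depended on replicate 4 of *spp1*, at -0.50 with that library and -0.30 without it. Sevir.1G338300, nearest to ABF4, was low, with 0.77, 0.39, 0.80 and 0.51 FPKM in *spp1* and 1.33, 1.67, 0.85 and 0.99 FPKM in A10.1 at 14 DAS. No step of it was past the threshold in A10.1, and in *spp1* its mean was under 1 FPKM and it was not tested.

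Sevir.4G155800 took the reverse course. It is nearest to bZIP9, of the C group of Arabidopsis bZIP factors, and was listed at 10 and 12 DAS. At 10 DAS it had 68.7, 26.9, 98.9 and 21.6 FPKM in *spp1* and 72.1, 65.8, 104 and 92.9 FPKM in A10.1. The *spp1* libraries were widely spread there, with replicates 2 and 4 below all A10.1 libraries and replicates 1 and 3 within their range. At 14 DAS it had 11.1, 6.18, 17.9 and 4.4 FPKM in *spp1* and 8.86, 12.9, 8.09 and 12.8 FPKM in A10.1. From 10 to 14 DAS it fell by a log2 change of -2.24 ± 0.506 in *spp1* (adjusted p = 0.00965) and of -2.87 ± 0.196 in A10.1 (adjusted p = 5.44e-07), the largest change of any member tested in both genotypes apart from the histone-like gene in *spp1*.

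WRKY members had both the highest level of all members and some of the lowest. Sevir.7G239400, nearest to WRKY11, which dampens basal resistance in Arabidopsis, had 201 FPKM over the 22 libraries and no step past the threshold. Its libraries of 14 DAS had 207, 179.8, 234 and 276 FPKM in *spp1* and 175, 176, 189.7 and 163 FPKM in A10.1, with overlap. Sevir.3G295100 is nearest to WRKY70, a factor of salicylate and jasmonate defense signaling in Arabidopsis, and was listed at 10 and 14 DAS. It had 84.1, 70.2, 111 and 104 FPKM in *spp1* and 26.1, 16.7, 93.1 and 47.1 FPKM in A10.1 at 10 DAS, where replicate 3 of A10.1 lay among the *spp1* libraries. At 14 DAS it had 76.7, 39.2, 63.9 and 55.4 FPKM in *spp1* and 35.7, 38.2, 32.2 and 39.2 FPKM in A10.1, and replicate 2 of *spp1* lay within the A10.1 range. With the 11 libraries of each genotype, no step of this gene was past the threshold. Its change from 10 to 14 DAS in *spp1* was -0.80 without replicate 1 of 14 DAS (adjusted p = 0.0498).

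Genes nearest to WRKY35 of Arabidopsis went in opposite directions. Sevir.7G233300 had 3.57, 4.85, 4.53 and 2.81 FPKM in *spp1* and 5.46, 6.62, 5.94 and 5.83 FPKM in A10.1 at 14 DAS, without overlap. It rose from 10 to 14 DAS by a log2 change of 1.58 ± 0.189 in *spp1* (adjusted p = 0.000179) and of 2.04 ± 0.116 in A10.1 (adjusted p = 1.46e-07). Sevir.9G005800 had 2.08, 2.91, 2.87 and 3.49 FPKM in *spp1* and 2.19, 1.07, 2.4 and 1.52 FPKM in A10.1 at 14 DAS, with overlap. It fell over the same time by a log2 change of -0.81 ± 0.155 in *spp1* (adjusted p = 0.00356) and of -1.09 ± 0.174 in A10.1 (adjusted p = 0.000388). Sevir.1G259700, WRKY12-like, had 11.6, 10.7, 7.94 and 9.64 FPKM in *spp1* and 6.27, 5.53, 5.64 and 7.31 FPKM in A10.1 at 14 DAS, with every *spp1* library above every A10.1 library. Its change from 10 to 14 DAS was -0.75 ± 0.155 in *spp1* (adjusted p = 0.00602) and -1.30 ± 0.0979 in A10.1 (adjusted p = 1.16e-06).

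The 38 members not described singly were chosen by none of the rules for naming. Their means over the 22 libraries ran from 0.962 to 67.1 FPKM. Of the 34 listed at 14 DAS, 20 were higher in *spp1* and 14 lower, with differences between -0.55 and 0.62. From 10 to 14 DAS, 4 of 38 rose and 8 fell in *spp1*, with changes between -1.01 and 0.72. In A10.1, 11 of 37 rose and 8 fell over that time, with changes between -1.51 and 1.17. Rises made up 10.5% of those tested in *spp1* and 29.7% in A10.1, beside 8.11% and 31.4% of all genes. Falls made up 21.1% in *spp1* and 21.6% in A10.1. Of all genes, 1808 of 17902 fell in *spp1* and 16.9% in A10.1. The naming rules had taken out the members with the largest changes, so nothing is read from these shares against those of all genes. The 15 MYB members among them held 0 rises and 3 falls in *spp1*, and 6 rises and 3 falls in A10.1. The 10 bHLH members held 1 rise and 4 falls in each genotype. Of the 9 WRKY members, 2 rose and 1 fell in *spp1*, and 3 rose and 1 fell in A10.1.

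The difference between genotypes was tested only for members at stages whose libraries had not listed them. Of the members listed at 14 DAS alone, limma called 0 of 55 at 12 DAS and 0 of 54 at 10 DAS. At 12 DAS 0.0903% of all 17718 genes were called higher in *spp1* and 0.198% lower, and at 10 DAS 0.0167% and 0.0112% of all 17937 genes. At an unadjusted p of 0.05, 7 of the 55 were higher in *spp1* and 2 lower at 12 DAS, beside 5.81% and 3.25% of all genes. At 10 DAS, 2 of the 54 were higher and 1 lower at that p, beside 2.51% and 1.64% of all genes. The side of the difference was mostly that of 14 DAS, with 30 of 33 members higher and 19 of 21 lower at 12 DAS, and 23 of 33 higher and 16 of 20 lower at 10 DAS. No share of all genes that kept their side is given here, so nothing is read from these counts. Of the 8 members listed at 12 DAS alone, 0 were called at 10 DAS and 0 at 14 DAS, where 0.68% of all 17645 genes were called higher and 1.25% lower in *spp1*. With median ratio scaling that balance at 14 DAS turned, to 1.37% higher and 1.04% lower. At an unadjusted p, 0 of the 8 passed at 10 DAS, and 2 passed at 14 DAS, lower in *spp1*, beside 7.06% of all genes higher and 15.8% lower. Without replicate 4 of *spp1* at 14 DAS, 2 of the 8 were called there. The share of all genes called without that library is not given here, so nothing is read from this count.

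Whether the step from 10 to 12 DAS differed between the genotypes was tested for the same 57 members, in a single limma fit of all 22 libraries, a test added after the data were seen. Of the 55 members tested, 0 passed an adjusted p of 0.05, beside 0% of 17896 genes. At an unadjusted p of 0.05, 2 of the 55 passed, beside 1.85% of all genes.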

How the data were processed

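RNA-seq libraries from hand-dissected inflorescences were made with a stranded kit. Per the paper's methods and the submitters' processing notes, the authors trimmed reads with Trimmomatic, checked them with FastQC, mapped them to the *Setaria viridis* genome with TopHat2 and Bowtie2, and ran Cuffdiff. Tool versions are not given in the sources used here. The deposited values are FPKM per primary transcript and library, and the percent of reads mapped was also computed by the authors. FPKM hold no read counts, so no counting intervals are given. The stage lists, called with Cuffdiff between genotypes, gave membership and annotation only. Their group means, fold changes, p-values, and q-values were not used, so no values near the authors' threshold are given.

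Members and lists were chosen with earlier results of these data known. A member's family is the first found of WRKY, bZIP, helix-loop-helix, heat stress, CCAAT or histone-like, and MYB in its rice description. Values were tested as log2(FPKM + 1) with limma 3.58.1 in R 4.3.3, with a trended empirical Bayes prior, over genes that averaged 1 FPKM or more in the fitted libraries. P-values were adjusted by Benjamini-Hochberg over all those genes, with a threshold of 0.05. Scripts were tested on simulated data. A library is a pool of plants, and nothing says what the replicate numbers mark, so p-values measure the spread between these pools. Same-numbered libraries were therefore not paired. Their deviations correlated at -0.17 to 0.51, some above and some below the 0.1 set as required for pairing. Differently numbered libraries correlated at -0.47 to 0.48. These values do not settle whether the libraries were paired. Named members were those listed at more than 1 stage, in each family the 3 with the largest genotype difference at 14 DAS and the 1 with the highest level, every member of a family of 4 or fewer, and up to 3 with the largest change per direction, short step, and genotype among those called without overlap of libraries. Others are said to be picked later. Alternatives were a pseudocount of 0.1, no filter or a mean of at least 5 FPKM, median ratio scaling, a replicate block, a single fit of all libraries, leaving out each library, and a member list that added 37 listed genes whose family word stood only in another description. The test of the difference in step, the counts by family, and the values without replicate 4 of *spp1* at 14 DAS were added after the data were seen. Some items are not reported here.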

Additional observations from a re-analysis of the deposited data

Results flagged for a closer look

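Among 119 groups of 4 libraries examined for the 30 members named by rule, 5 held a library far from the other 3 (gap over range above Dixon's critical value), where chance gives about 1 in 20. The count is no higher than that share of the groups. The bHLH96-like Sevir.1G284700 had 60.52 FPKM in replicate 3 of *spp1* at 10 DAS, against 80.02 to 81.63 FPKM in the other 3 libraries. AREB3-like Sevir.3G203000 had 2.28 FPKM in replicate 4 of *spp1* at 14 DAS, the library that stood apart over all genes, against 4.54 to 4.90 FPKM in the others. Sevir.9G238700, the telomere repeat-binding member, had 1.62 FPKM in replicate 1 of *spp1* at 14 DAS, with 2.61 to 2.75 FPKM in the others. In A10.1 at 10 DAS, ABI5-like Sevir.5G394500 had 0.55 FPKM in replicate 4, with 1.26 to 1.31 FPKM in the others. GLK1-like Sevir.9G078400 had 53.19 FPKM in replicate 1 of A10.1 at 10 DAS, with 25.58 to 29.79 FPKM in the others.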

How the results depend on the processing

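No alternative turned the direction of a called change. Counts within 1.5 times of those reported were seen for 216 recomputed counts over all members and not for 32. The exceptions beside leaving out a library were these. In *spp1* from 10 to 12 DAS, 3 members rose with a mean of at least 5 FPKM, with median ratio scaling, or with the replicate block, and 8 in a single fit of all libraries, against 5 reported. From 12 to 14 DAS in *spp1*, 1 rose with a pseudocount of 0.1 or a mean of at least 5 FPKM and 4 in the single fit, against 2 reported, while 1 fell without a filter and 5 in the single fit, against 3 reported. From 10 to 14 DAS in *spp1*, 7 rose with a mean of at least 5 FPKM, against 14. With members taken from any description, 22 fell in A10.1 from 10 to 12 DAS and 37 from 10 to 14 DAS, against 14 and 23. When each library was left out in turn, the members that rose in *spp1* numbered 0 to 5 from 10 to 12 DAS, 1 to 3 from 12 to 14 DAS, and 12 to 17 from 10 to 14 DAS. Those that fell in *spp1* numbered 3 to 6, 1 to 3, and 16 to 20. In A10.1, 12 to 15, 4 to 6, and 24 to 25 rose, and 9 to 15, 7 to 12, and 23 to 25 fell. Shares of all genes moved too, as given above for the short steps. Of the members listed at 12 DAS alone, 0 to 2 were called between genotypes at 14 DAS. Other such counts between genotypes, and that of the difference in step, stayed at 0 under every alternative run. Same-numbered libraries were not shown to be paired, and the replicate block cost 5 calls of named members and added 10, among them a fall of Sevir.3G295100 from 10 to 14 DAS in *spp1* (-0.66, adjusted p = 0.0204).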
